A study of Rattus norvegicus with 8 samples.

Results

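The miR-34 and miR-449 family was taken as the rows of the count table whose names begin with miR-34a, b or c or with miR-449a, b or c, both arms included. This gave 8 of the 620 miRNAs listed, namely both arms of the miR-34a, miR-34b and miR-34c hairpins, miR-449a and miR-449c-5p. A star marks the arm of a hairpin that was named as the lesser product. The counts come from the kidneys of 8 male Big Blue rats, a transgenic line on the Fisher 344 strain that carries a reporter for mutations. From an age of 6 weeks, 4 rats (AA-treated) were gavaged 5 times a week with the sodium salt of aristolochic acid (AA), a plant toxin that damages the kidney and causes tumors, at a dose of 10.0 mg/kg and a volume of 4 ml/kg. The other 4 (control) received saline, 0.9% sodium chloride, on that schedule. The methods of the study state 12 weeks of treatment, but by the labels it ran for 12, 13, 14 and 15 weeks in rats 1 to 4 of either group, all aged 18 weeks. A start at 6 weeks and an age of 18 weeks match 12 weeks of treatment and not 13 to 15. Each kidney gave its own small RNA library, without pooling, and "treated kidneys" and "control kidneys" numbered 1 to 4 stand for these rats.

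A microRNA hairpin is cut into a 5p and a 3p arm, and the arm that is loaded into Argonaute pairs with mRNAs mainly through its seed, the bases 2 to 8. The miR-34 hairpins are direct transcriptional targets of p53, the transcription factor that is activated by DNA damage, and their 5p arms repress genes of the cell cycle and of cell survival, among them cyclin-dependent kinases, Bcl2, Met and Sirt1. The miR-449 hairpins carry the same seed, are known to be induced by E2F1, and are abundant in multiciliated epithelia, as are miR-34b and miR-34c. AA forms DNA adducts in the kidney, and the comparison of AA-treated with control kidneys asks how this damage-responsive family was expressed after the treatment.

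All 8 names were matched to mature miRNAs of RefSeq on the rat assembly GRCr8. Their sequences are shown because the shared seed is what defines the family, and capitals mark bases 2 to 8 of each, written 5′ to 3′. The sequences of miRBase release 16, to which the reads were assigned, were not used here and may start or end at another base.
rno-miR-34a: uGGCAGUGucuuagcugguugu
rno-miR-34b: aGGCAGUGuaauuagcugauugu
rno-miR-34c: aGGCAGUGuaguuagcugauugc
rno-miR-449a: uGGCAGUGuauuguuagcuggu
rno-miR-449c-5p: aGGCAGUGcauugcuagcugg
rno-miR-34a*: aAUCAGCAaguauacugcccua
rno-miR-34b*: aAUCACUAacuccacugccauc
rno-miR-34c*: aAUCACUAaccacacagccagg
The 5 members from the 5p arm have the same seed, GGCAGUG, and no other of the 693 mature names in the RefSeq table carries it. Among the 3p arms, miR-34b* and miR-34c* share the seed AUCACUA, which is found in these 2 names alone, and miR-34a* has the seed AUCAGCA, which is found in no other name.

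The hairpin of miR-34a lies alone on chromosome 5, with the mature 5p arm at chr5:165815971-165815992 on the plus strand of GRCr8, within the annotated lncRNA LOC103692514. The hairpins of miR-34b and miR-34c are 441 bases apart on the minus strand of chromosome 8, with the 5p arms at chr8:60306657-60306679 and chr8:60306133-60306155, and both overlap the annotated gene Hoatz. The hairpins of miR-449c and miR-449a are 1436 bases apart on the plus strand of chromosome 2, with the 5p arms at chr2:46402394-46402414 and chr2:46403925-46403946, within the lncRNA LOC134485839. The count table names no genome build, so these positions describe RefSeq and not the mapping of the reads. Near-identical members could exchange reads, since how a read matching more than 1 miRNA was counted is not given in the sources used here. Over 23 bases miR-34b and miR-34c differ at 2, A11G and U23C, with positions counted from 1 at the 5′ end and the base of miR-34b first. miR-449a and miR-449c-5p differ at 3 of 21 bases, and miR-34b* and miR-34c* at 5 of 22, all counted without gaps from the first base.

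The libraries held 13412373 to 15616670 counts on miRNAs, in overlapping ranges for the groups. Counts were scaled by median-of-ratios size factors, as in the DESeq package, to give normalized counts. All 620 miRNAs were tested in edgeR by quasi-likelihood, and p-values were adjusted after Benjamini and Hochberg. A miRNA counted as up- or down-regulated where its adjusted p was under 0.05 and its group means differed by over 1.5-fold. By these criteria 5.81% of the 620 miRNAs were up-regulated and 3.23% down-regulated, 9.03% in all, while 9.68% had every treated kidney above every control kidney and 6.61% the opposite. The median log2 fold change (log2FC) over all miRNAs was 0.05, against 0.31 when total counts replaced the size factors, and the median of the 8 members moved from 3.58 to 3.83 with that scaling. Kidneys numbered 4 were often the highest or lowest of their group among the members, so values without both of them are added below. As a description of the labelled tissue, 7 tubule miRNAs (miR-192, miR-194, miR-204, miR-30a, miR-30d, miR-200b and miR-200c) summed to 1742090 to 3433340 normalized counts. The largest part was miR-30a, with means of 1850153 in the control kidneys and 1588732 in the treated kidneys, and no threshold was set for the sum. In a piece of whole kidney, a change in the number of cells of a type and a change in the RNA of each cell cannot be told apart.

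Of the 8 members, 7 were up-regulated after AA treatment, beside 5.81% of all miRNAs, and none was down-regulated, beside 3.23%. The same 7 had no overlap between the groups, with the treated kidneys above, beside 9.68% of all miRNAs. The median log2 fold change of the 8 members was 3.58. Setting 3 counts per control library for miR-449c-5p, as below, cannot change it, since its fitted value was already the lowest of the 8. By unadjusted p, miR-34a, miR-34b*, miR-34c*, miR-34c and miR-34b held ranks 1 to 5 of the 620 miRNAs, miR-34a* rank 9, miR-449a rank 12 and miR-449c-5p rank 59. By log2FC miR-34a held rank 7, miR-34a* rank 9, miR-34c rank 11, miR-34b rank 12 and the other members ranks 16 to 20. The members were named with earlier results of these data known, so that these counts describe the family.

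miR-34c, the 5p arm of the second hairpin of the miR-34b/c unit, was the most abundant member in every rat. The 4 control kidneys had 5326, 4186, 3887 and 7083 normalized counts, and the 4 treated kidneys 69410, 43318, 47318 and 114524. Every treated kidney was at least 6.12-fold above the highest control kidney, and the kidney numbered 4 was the highest of its group in both groups. The mean rose 13.4-fold, from 5120 ± 1448 to 68642 ± 32669 (SD, n = 4 each), with a log2FC of 3.74 (SE 0.33, edgeR adjusted p = 3.88e-06). Without treated kidney 4 the log2FC was 3.39, and without both kidneys numbered 4 it was 3.59. In the order of abundance of its own library, miR-34c moved from rank 63 to 89 in the control kidneys to rank 11 to 27 in the treated kidneys.

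miR-34a, the member best known as a p53 target and tumor suppressor, had the largest fold change of the 7 members called, although without control kidney 3 the log2FC of miR-34a* was higher, 4.57 against 4.40. Its normalized counts were 348, 336, 361 and 494 in the control kidneys and 6413, 7419, 7113 and 12058 in the treated kidneys. The lowest treated kidney was 13.0-fold above the highest control kidney, the widest gap between the groups among the members. The mean rose 21.4-fold, from 385 ± 73.3 to 8251 ± 2573 (SD, n = 4 each; log2FC 4.42, SE 0.27, edgeR adjusted p = 1.28e-07). Without both kidneys numbered 4 the log2FC was 4.33. miR-34a took rank 157 to 166 in the control libraries and rank 49 to 74 in the AA-treated libraries.

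**Figure D1:**
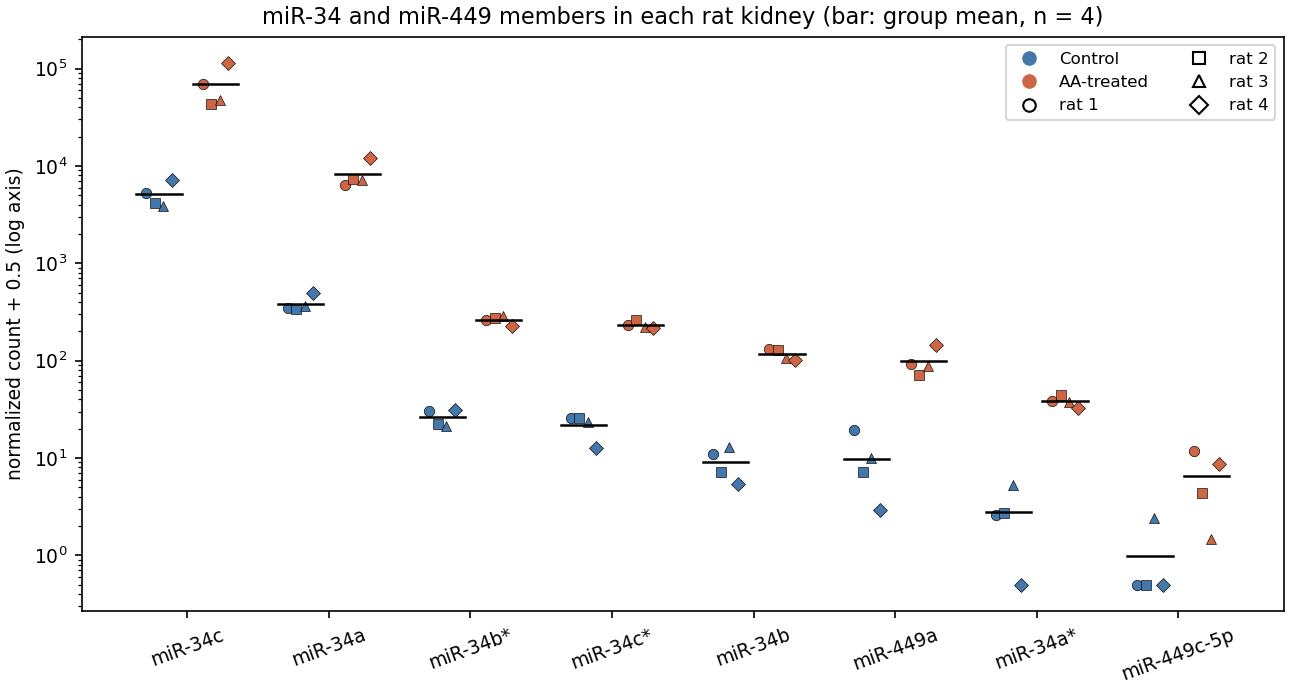
Normalized counts of the 8 members in each rat on a log axis, after adding 0.5, with the control kidneys on the left of each pair and the treated kidneys on the right; symbols give the rat number and the bars the group means (n = 4). The groups do not overlap for 7 members, and the treated kidney numbered 4 is the highest for miR-34c, miR-34a and miR-449a and the lowest for miR-34a*, miR-34b, miR-34b* and miR-34c*.

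The other products of the miR-34b/c unit were far less frequent in the libraries and rose by 10.1- to 13.6-fold. miR-34b* had 30.1, 22.0, 20.9 and 30.5 normalized counts in the control kidneys and 263, 275, 284 and 224 in the treated kidneys. Its mean rose from 25.9 ± 5.18 to 261 ± 26.4 (SD, n = 4 each; log2FC 3.33, SE 0.27, edgeR adjusted p = 2.19e-06). The treated kidneys thus lay close together, with a coefficient of variation of 10.1% against 47.6% for miR-34c. miR-34c*, with the same seed as miR-34b*, had 24.9, 25.3, 22.8 and 12.2 normalized counts in the control kidneys and 232, 264, 219 and 218 in the treated kidneys. Its log2FC was 3.44 (SE 0.29, edgeR adjusted p = 3.30e-06), and the treated kidneys had the smallest coefficient of variation of the family, 9.14%. miR-34b had 10.4, 6.59, 12.3 and 4.89 normalized counts in the control kidneys and 130, 127, 107 and 101 in the treated kidneys. It rose from counts of 4 to 13 per control library (log2FC 3.73, SE 0.34, edgeR adjusted p = 5.24e-06), and the 2 bases that separate it from miR-34c leave its level uncertain.

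miR-34a*, the 3p arm of the miR-34a hairpin, was close to the limit of detection in the control kidneys, with 2, 2, 5 and 0 counts. In the treated kidneys it had 34, 56, 38 and 39 counts, or 38.2, 43.7, 37.5 and 31.8 normalized counts. Each treated kidney was at least 6.70-fold above the highest control kidney, and the log2FC was 3.93 (SE 0.52, edgeR adjusted p = 2.14e-04). The size of this rise depends on control kidney 3, the one with 5 counts, and without this rat the log2FC was 4.57. PCR reads are not independent molecules, so the limits set by such low counts cover counting error only.

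miR-449a, from the other locus of the family, had 18.7, 6.59, 9.48 and 2.44 normalized counts in the control kidneys and 92.0, 70.2, 87.8 and 143 in the treated kidneys. The groups did not overlap, and treated kidney 4 was the highest and control kidney 4 the lowest. Its mean rose from 9.31 ± 6.90 to 98.3 ± 31.4 (SD, n = 4 each; log2FC 3.37, SE 0.47, edgeR adjusted p = 2.85e-04), and without both kidneys numbered 4 the log2FC was 2.84. miR-449c-5p had 0, 0, 2 and 0 counts in the control kidneys and 10, 5, 1 and 10 in the treated kidneys. Treated kidney 3 lay below control kidney 3, so that the groups overlapped. With 3 counts set for every control library, the mean of the treated kidneys was 1.88-fold higher. This ratio is not a lower limit of the fold change. The difference did not pass the threshold (adjusted p = 0.0593 from edgeR; exact permutation test of the difference in means, two-sided, p = 0.0571, n = 4 per group). For each of the other 7 members the exact test gave p = 0.0286, which 4 values against 4 cannot go below. miR-449b was not among the miRNAs listed.

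**Figure D2:**
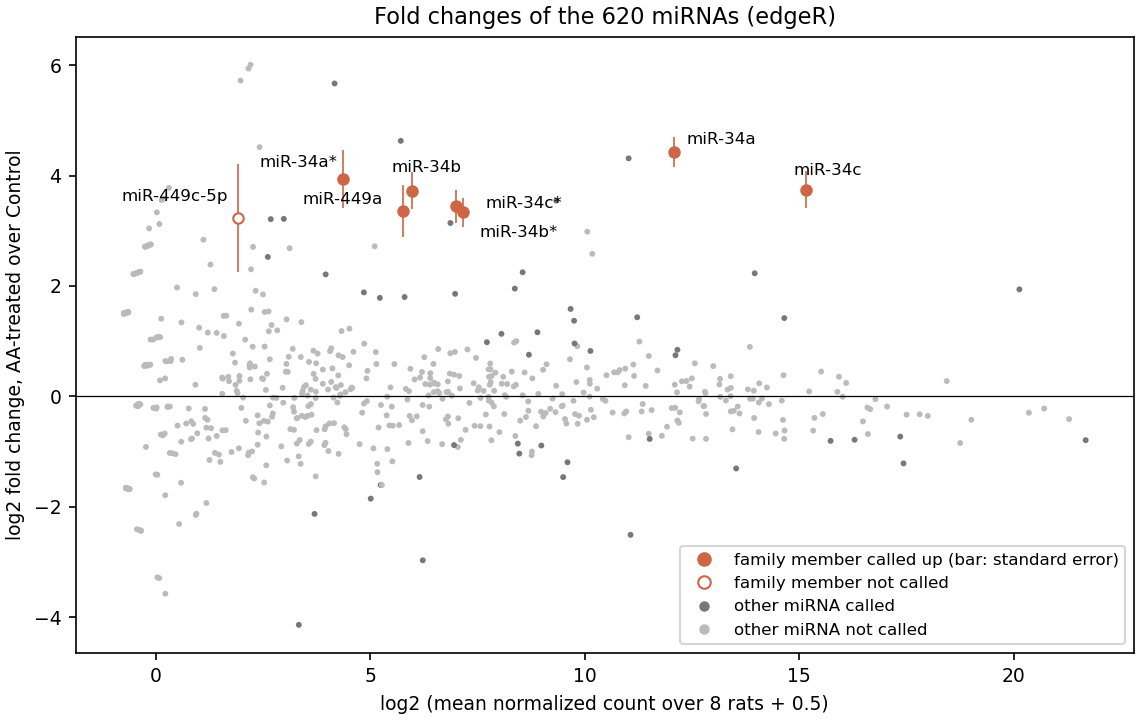
Log2 fold change of AA-treated over control kidneys (edgeR) against the log2 mean normalized count plus 0.5 for the 620 miRNAs, with the family members in orange and their standard errors as bars. The 7 members called lie between 3.33 and 4.42, against a median of 0.05 for all miRNAs, and miR-449c-5p is the open point, whose fitted value ranged from 2.82 to 5.63 when 1 rat was left out.

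The 8 members together took 0.0363%, 0.0284%, 0.0294% and 0.0454% of the miRNA counts of control kidneys 1 to 4. They took 0.509%, 0.434%, 0.405% and 1.00% in treated kidneys 1 to 4. The mean share was 0.0349% ± 0.00787 in the control kidneys and 0.587% ± 0.279 in the treated kidneys (SD, n = 4 each), a 16.8-fold difference, given without a test as a sum over members chosen with results known. Without treated kidney 4 the mean of the treated kidneys was 0.449%. The members with the seed GGCAGUG made up nearly all of this, with 4129 to 6207 counts per control library and 55394 to 155753 per AA-treated library. miR-34c alone was 91.7% ± 1.30 of the family in the control kidneys and 87.6% ± 3.19 in the treated kidneys, and miR-34a was 7.05% ± 1.02 and 11.3% ± 2.83 (SD, n = 4 each). The remaining 6 members together made up 0.571% to 1.67% of the family counts of a rat. Ligation and PCR favour some small RNAs over others, so that the counts of different miRNAs give their order in the libraries and not the ratio of molecules.

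**Figure D3:**
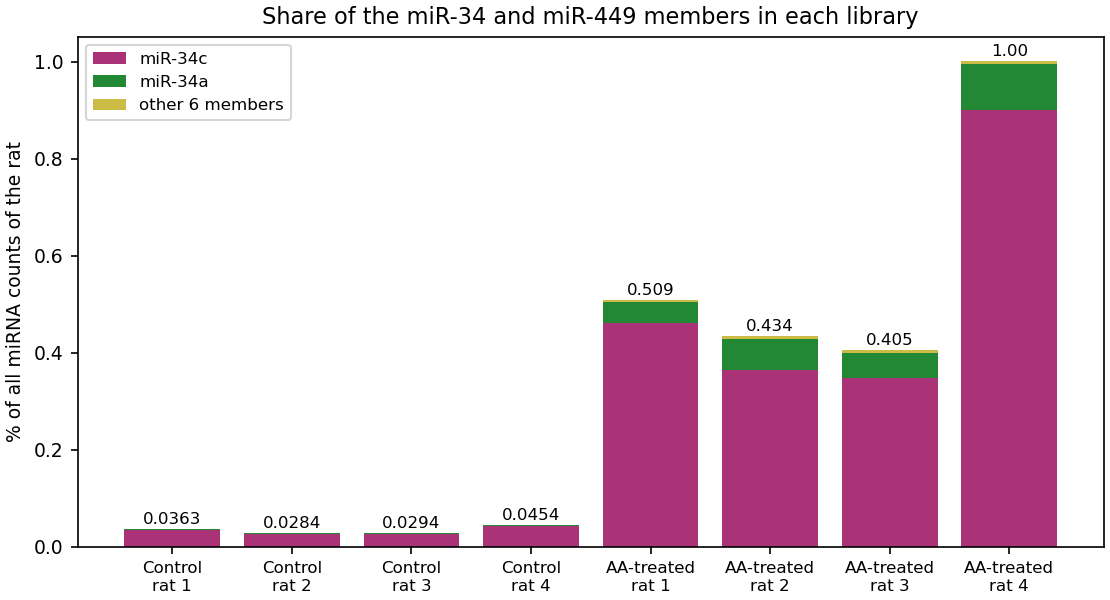
Share of all miRNA counts of each rat taken by the 8 members, in percent, divided into miR-34c, miR-34a and the other 6 members. The 4 treated kidneys lie between 0.405% and 1.00% and the 4 control kidneys between 0.0284% and 0.0454%, and miR-34c is the largest part in every rat.

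Whether the members rose by different amounts was tested with 7 ratios of counts within a rat, which do not depend on the size factors, each after adding 0.5 to the counts. For the 3 hairpins with both arms listed, this was the 5p arm over the 3p arm. miR-34c exceeded miR-34c* 209-, 162-, 167- and 552-fold in control kidneys 1 to 4 and 298-, 164-, 216- and 524-fold in treated kidneys 1 to 4. The groups overlapped, and the kidney numbered 4 had the highest ratio in each. miR-34a exceeded miR-34a* 69.4- to 809-fold in the control kidneys and 166- to 375-fold in the treated kidneys, again with the kidney numbered 4 highest in each group. The order of the arms was the opposite in the miR-34b hairpin, where miR-34b was 0.176 to 0.600 of miR-34b* in the control kidneys and 0.376 to 0.497 in the treated kidneys. The difference between the groups in log2 arm ratio was 0.20 ± 0.55 for miR-34c, 0.27 ± 0.82 for miR-34a and 0.43 ± 0.37 for miR-34b (AA-treated minus control, ± SE, n = 4 per group; two-sided exact permutation p = 0.714, 0.743 and 0.343, adjusted over the 7 ratios p = 0.743, 0.743 and 0.600). With 4 values against 4 the exact p cannot go below 0.0286, so that after adjustment a single ratio cannot go below 0.200, and at least 5 of the 7 ratios would have to reach this limit for any to pass. The adjusted tests therefore do not show whether the ratios changed. The value for miR-34a also depends on the pseudocount, since miR-34a* had 0 to 5 counts in the control kidneys, and the difference was 0.66 with a pseudocount of 1 and 1.46 with 3. The 2 arm ratios of the miR-34a and miR-34c hairpins were each higher in treated kidney 4 than in the other 3 treated kidneys, by 1.11 and 1.26 on the log2 scale, and in control kidney 4 than in the other 3 control kidneys, by 2.95 and 1.63. The value of 2.95 rests on a count of 0 for miR-34a* in control kidney 4 and is set by the pseudocount.

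Between hairpins, the arms with more counts were compared. miR-34a over miR-34b* was 11.4 to 17.0 in the control kidneys and 24.4 to 53.7 in the treated kidneys, where kidney 4 was the highest. All 4 treated kidneys were above all 4 control kidneys, and the log2 ratio was 1.07 ± 0.30 higher (± SE; two-sided exact permutation p = 0.0286, n = 4 per group), and the adjusted p of 0.200 is the smallest that a single ratio could reach. miR-34a over miR-34c was 0.0655, 0.0804, 0.0930 and 0.0698 in the control kidneys and 0.0924, 0.171, 0.150 and 0.105 in the treated kidneys. Only treated kidney 1 fell within the range of the control kidneys, and the log2 difference of 0.72 ± 0.24 did not pass the threshold (two-sided exact permutation p = 0.0571, adjusted p = 0.200, n = 4 per group). Within the miR-34b/c unit, the log2 ratio of miR-34b* over miR-34c differed by -0.35 ± 0.40 between the groups (exact permutation test, p = 0.543, adjusted p = 0.743, n = 4 per group), and by -0.08 without both kidneys numbered 4. The log2 ratio of miR-34a over miR-449a differed by 0.82 ± 0.67 (exact permutation test, p = 0.314, adjusted p = 0.600, n = 4 per group), and by 0.36 without control kidney 1 and 1.41 without control kidney 4.

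**Figure D4:**
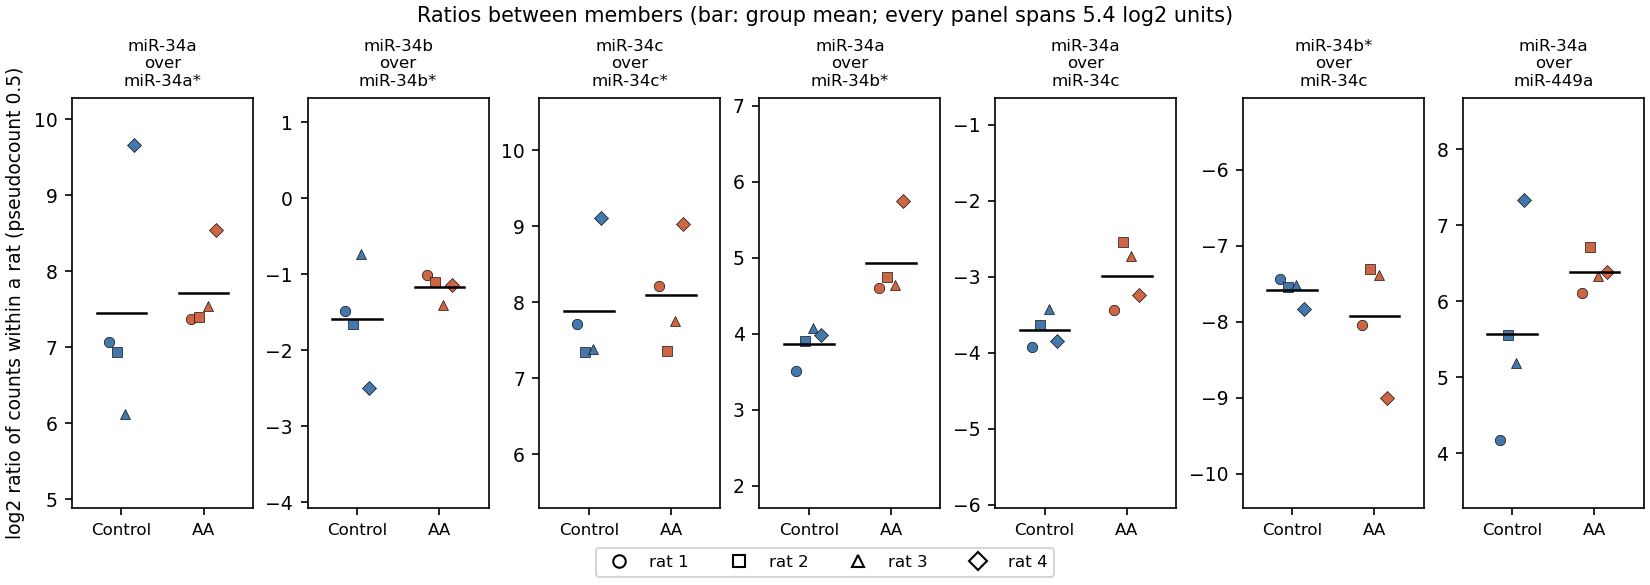
Log2 ratio of the counts of 2 members within each rat, after adding 0.5, for the 3 arm pairs, the 3 pairs of leading arms and miR-34a over miR-449a; symbols give the rat number, bars the group means, and each panel spans the same 5.4 log2 units. The groups are apart for miR-34a over miR-34b* and overlap in the other panels, and the kidneys numbered 4 are the highest of their groups for miR-34a over miR-34a* and miR-34c over miR-34c*.

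The miRNAs outside the family whose profile over the 8 rats was nearest to that of miR-34a were miR-224, miR-511*, miR-187, miR-130b and miR-146b. The distance was the root-mean-square difference of the centred log2 values, over 369 miRNAs with at least 10 normalized counts on average. Within the family it was 0.462 for miR-34c, 0.656 for miR-34b*, 0.664 for miR-34b, 0.711 for miR-34c*, 0.901 for miR-34a* and 0.907 for miR-449a. miR-224 followed miR-34c* at 0.882 and miR-511* at 0.886, before miR-187 at 1.03, miR-130b at 1.15 and miR-146b at 1.26. The groups were apart for all 5, as they were for miR-34a. miR-224 had at most 36.2 normalized counts in the control kidneys and 131 to 276 in the treated kidneys, and miR-130b had 109 to 148 and 404 to 757 (log2FC 3.14 and 2.25, edgeR adjusted p = 1.35e-04 and 6.37e-05). miR-511* had 150 to 223 and 996 to 11412, and miR-187 had 80.0 to 136 and 305 to 3364 (log2FC 4.31 and 3.55, edgeR adjusted p = 7.60e-04 and 0.00258), each with the highest value in treated kidney 4. miR-146b had 5072 to 7093 and 12297 to 38850 (log2FC 2.23, edgeR adjusted p = 2.85e-04). The likeness is a description over 8 rats of both groups, so that any miRNA with a large difference between the groups scores as near.

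Other miRNAs linked to p53 were examined beside the family. Of 12 miRNAs that p53 induces or helps to process, 10 were listed, of which none was up-regulated (5.81% of all miRNAs) and 1, miR-107, was down-regulated (3.23%), with a median log2FC of -0.22 beside 0.05 for all miRNAs. For 2 of the 10, miR-107 and miR-194, every treated kidney was below every control kidney, beside 6.61% of all miRNAs. miR-194, which is made with miR-192, had 28345 to 36274 normalized counts in the control kidneys and 11305 to 25740 in the treated kidneys (log2FC -0.77, SE 0.23, edgeR adjusted p = 0.0515). miR-107, which targets genes of the cell cycle and of metabolism, had 2948 to 5069 normalized counts in the control kidneys and 1710 to 2436 in the treated kidneys (log2FC -0.77, SE 0.22, edgeR adjusted p = 0.0386). This call was lost with total counts (adjusted p = 0.162), with TMM scaling (0.0513) and without both kidneys numbered 4 (0.0804), as well as without control kidney 2, 3 or 4 or treated kidney 3 or 4 (0.0629 to 0.0914, edgeR in each case). Of the 3 most abundant miRNAs of the list, miR-143, a smooth muscle miRNA whose processing p53 promotes, had 2544652 to 3532449 normalized counts in the control kidneys and 1949958 to 2660294 in the treated kidneys (log2FC -0.41, SE 0.19, edgeR adjusted p = 0.200). miR-192, a tubule miRNA induced by p53 in other cells, had 328824 to 1124303 and 205633 to 388616 normalized counts (log2FC -0.84, SE 0.36, edgeR adjusted p = 0.168), with the highest value in control kidney 4. miR-16 had 33029 to 41450 and 37222 to 44326 (log2FC 0.09, SE 0.17, edgeR adjusted p = 0.755).

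Of the 6 miRNAs of the miR-17-92 cluster, which p53 represses, 1, miR-18a, was up-regulated (5.81% of all miRNAs) and none was down-regulated (3.23%), with a median log2FC of 0.56 beside 0.05 for all miRNAs. miR-18a, which targets genes of growth control, had 210 to 343 normalized counts in the control kidneys and 450 to 841 in the treated kidneys (log2FC 1.16, SE 0.26, edgeR adjusted p = 0.0123). For miR-18a, miR-19a, miR-19b and miR-20a all 4 treated kidneys were above all 4 control kidneys, beside 9.68% of all miRNAs, while the adjusted p of the latter 3 lay between 0.0678 and 0.168 in edgeR. The log2FC of the 16 other p53-linked miRNAs ranged from -0.84 to 1.16, against 3.33 to 4.42 for the 7 members called. The fitted log2FC of miR-449c-5p, which was not called, was 3.23. As a ratio of means against 3 counts per control library, miR-449c-5p rose 1.88-fold, within the range of the lists, where miR-18a rose 2.24-fold.

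**Figure D5:**
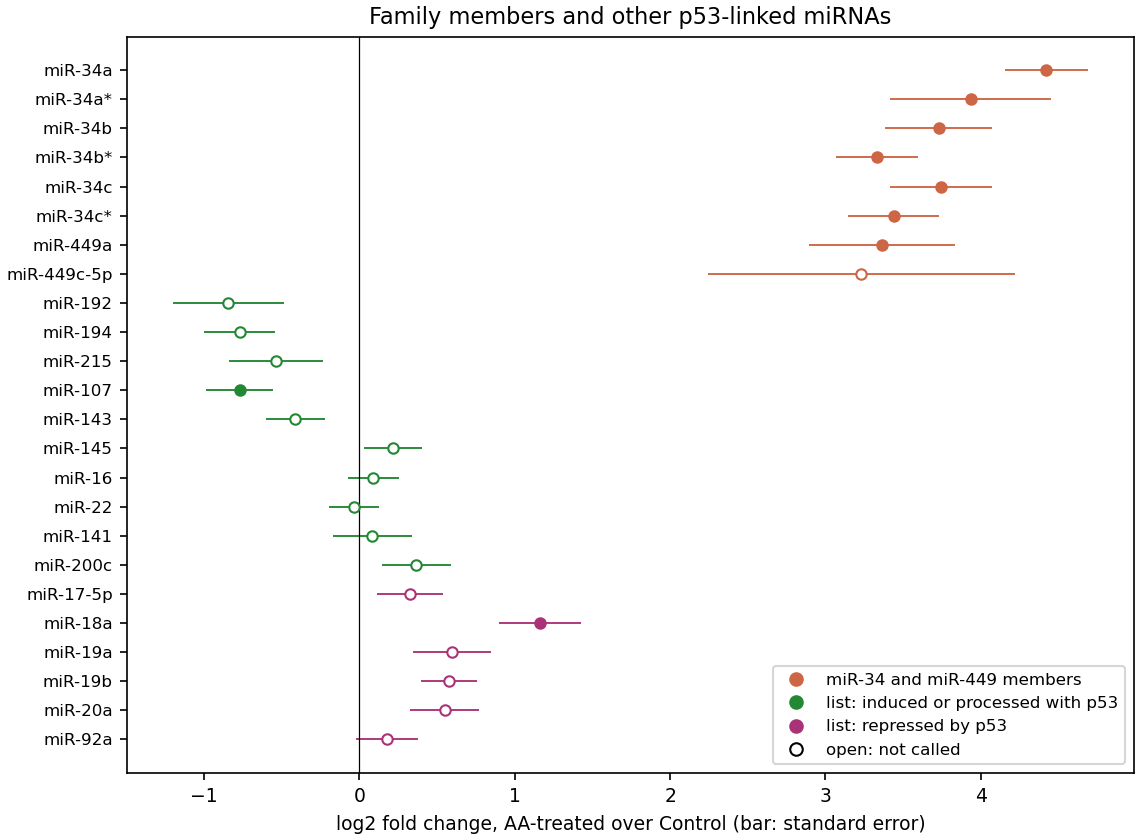
Log2 fold changes of AA-treated over control kidneys with their standard errors (edgeR) for the 8 members, 10 miRNAs induced or processed with p53 and 6 miRNAs repressed by p53; filled points were called. The 7 members called lie between 3.33 and 4.42 and the other miRNAs of the lists between -0.84 and 1.16, and the fitted value of miR-449c-5p, which was not called, rests on control counts of 0 and 2.

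Markers of other cells also differed between the groups, and their part in the rise of the family was not tested. Of 6 leukocyte miRNAs, 5 were listed, and their summed normalized counts were 31909 to 42211 in the control kidneys and 48745 to 77012 in the treated kidneys, highest in treated kidney 4. Of the 5, 2 were up-regulated (5.81% of all miRNAs) and 3 had every treated kidney above every control kidney (9.68%). miR-142-3p, a miRNA of blood cells, made the largest part of the rise in the sum, from a mean of 14047 to 37532 (log2FC 1.42, SE 0.22, edgeR adjusted p = 7.92e-04). miR-223, a miRNA of granulocytes and macrophages, rose with 0.96 (SE 0.24, edgeR adjusted p = 0.0231), a call that was lost without control kidney 1, 2 or 3 (adjusted p = 0.0674 to 0.0747 from edgeR). miR-150 was apart between the groups without a call (log2FC 0.52, edgeR adjusted p = 0.133). miR-142-5p (log2FC 0.26) and miR-146a (-0.14) overlapped between the groups and were not called. The 3 fibroblast miRNAs summed to 6549 to 7895 and 7788 to 13669 normalized counts, and none of them was called, beside 9.03% of all miRNAs. miR-199a-3p had every treated kidney above every control kidney, as did 9.68% of all miRNAs, at an edgeR adjusted p of 0.0670. The 7 tubule miRNAs summed to 2416459 to 3433340 in the control kidneys and 1742090 to 2506840 in the treated kidneys. Their log2FC ranged from -0.86 for miR-204 to 0.37 for miR-200c. Of the 7, 2 had every treated kidney below every control kidney, beside 6.61% of all miRNAs. Only miR-204 was called down-regulated, beside 3.23% of all miRNAs (log2FC -0.86, SE 0.24, edgeR adjusted p = 0.0357). This call was lost with TMM scaling (0.0513), with total counts (0.174), without control kidney 1, 2 or 4 or treated kidney 1 or 3 (0.0745 to 0.0883), and without both kidneys numbered 4 (0.0516). The 2 red cell miRNAs listed summed to 6910 to 11910 and 2172 to 8116, with none called, and the hepatocyte miRNA miR-122 had 60.4 to 735 and 10.1 to 7519, also without a call. Each upper value of miR-122 came from 1 rat. Control kidney 1 had 735 and the other control kidneys at most 90.1, and treated kidney 2 had 7519 and the other treated kidneys at most 42.4.

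Since miR-34b, miR-34c and miR-449a are abundant in the testis, 11 X-linked testis miRNAs were also examined. Of the 10 listed, 6 had no count in any control kidney, and the list summed to 0 to 15.9 normalized counts in the control kidneys and to 543, 21.9, 84.8 and 8.14 in treated kidneys 1 to 4. The median log2FC of the 10 was 3.82, from few counts, beside 3.58 for the family members and 0.05 for all miRNAs. Only miR-743b, which was not called, had every treated kidney above every control kidney, beside 9.68% of all miRNAs. Of the 10, 2 were called up-regulated, miR-741-3p and miR-881 (log2FC 4.63 and 5.67, adjusted p = 0.0252 and 0.0223 from edgeR), beside 5.81% of all miRNAs. Both calls were lost with limma-voom (adjusted p = 0.147 and 0.0714). In edgeR the call of miR-741-3p was also lost without control kidney 1, 2 or 3 or treated kidney 1 (adjusted p = 0.0658 to 0.0743), and that of miR-881 without control kidney 1, 3 or 4 or treated kidney 1 (0.0532 to 0.0679). Without treated kidney 1, which had the highest sum, the log2FC of the 7 members called was 3.33 to 4.53. The other treated kidneys held 21.9, 84.8 and 8.14 normalized counts of the list. The lowest of these lay within the range of the control kidneys, 0 to 15.9. The part of the testis miRNAs in the values of the family was not tested.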

How the data were processed

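Small RNA of 8 rat kidneys was sequenced on an Illumina Genome Analyzer II, and the submitters' processing notes name CASAVA 1.7. Adaptors were masked and contaminated reads discarded by the authors, who collapsed like reads and matched them to miRBase at miRanalyzer's default settings. The genome build is not given in the sources used here. The deposited values are raw counts per mature miRNA and rat, and every column was assigned to 1 of 8 rats by its label.

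All 620 miRNAs were fitted with edgeR 4.0.16 in R 4.3.3 (quasi-likelihood test, median-of-ratios size factors, no covariate, no filter). The standard error is the log2 fold change divided by the square root of F. Ratios within a rat used a pseudocount of 0.5 and exact two-sided permutation tests. Permutations were enumerated in Python 3.11.15 (pandas 2.3.3, numpy 2.4.6), and plots were drawn with matplotlib 3.10.9. Both tests were tested on simulated data. No library repeated another, with a chi-square of at least 394 per degree of freedom between rats of a group.

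Alternatives were TMM, total counts, DESeq2 1.42.0, limma-voom (limma 3.58.1), a low-count filter, a replicate block, other pseudocounts, and leaving out rats. The members and lists were chosen with earlier results of these data known. Named were the 8 members, called and the 3 most abundant p53-linked miRNAs, the 5 miRNAs nearest to miR-34a with a mean of at least 10 normalized counts, and called markers. Other values singled out were chosen after they were seen. Where each control library had at most 3 counts, a ratio against 3 counts per library is also given. It allows for some counting error in the controls only and is not a lower limit of the fold change.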

Additional observations from a re-analysis of the deposited data

Results flagged for a closer look

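In 4 of the 32 sets of 4 rats examined, 1 rat lay farther from the other 3 than Dixon's 95% critical value allows, which chance alone does in about 5% of sets. Control rat 4 had 494 normalized counts of miR-34a against 336 to 361 in the other control rats. Control rat 3 had 1.90 normalized counts of miR-449c-5p against 0 in the others, which is a difference of 2 counts. Treated rat 4 had a log2 ratio of miR-34a over miR-34a* of 8.55 against 7.37 to 7.55, and of miR-34a over miR-34b* of 5.75 against 4.61 to 4.75 in the other treated rats.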

How the results depend on the processing

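For miR-449a and both arms of the 3 miR-34 hairpins the direction and the adjusted p under 0.05 were kept in all 15 alternatives. miR-449c-5p was called as well with total counts (adjusted p = 0.0317 in edgeR), with limma-voom (0.0370), without control rat 3 (0.0456) and without treated rat 3 (0.0185, edgeR), its adjusted p otherwise reached 0.220, and the low-count filter left it out. The 56 called miRNAs became 74 in DESeq2 and 40 to 62 when 1 rat was left out. With total counts 58 were called up against 36 and 11 down against 20, or 84.1% up against 64.3%, and leaving out 1 rat gave 13 to 25 called down, with the lowest number without control rat 1. Of the p53-linked miRNAs, 10 induced or processed with p53 and 6 repressed, 2 were called in the main fit, beside 9.03% of all miRNAs. Without both rats numbered 4 it was 1. Leaving out 1 rat gave 1 to 3 calls, with 1 call without control rat 2, 3 or 4 or treated rat 3 or 4. The marker lists held 7 tubule, 5 leukocyte, 2 red cell, 3 fibroblast, 10 testis and 1 hepatocyte miRNAs. Of these 5 were called in the main fit, beside 9.03% of all miRNAs, and 8 with total counts. With 1 rat left out 1 to 9 were called, with 1, 2, 2 and 3 calls without control rat 1, 2, 3 or 4 and 9 without treated rat 2. Leaving out 1 rat gave a difference of -0.17 to 1.01 for the log2 ratio of miR-34a over miR-34a* (-0.17 without control rat 3 and -0.00675 without treated rat 4), of -0.11 to 0.61 for miR-34c over miR-34c* (-0.11 without treated rat 4) and of -0.56 to 0.00614 for miR-34b* over miR-34c (0.00614 without treated rat 4), and of 0.36 to 1.41 for miR-34a over miR-449a and 0.13 to 0.71 for miR-34b over miR-34b* (0.71 without control rat 3 and 0.13 without control rat 4). A pseudocount of 3 gave 1.46 for miR-34a over miR-34a* and 0.17 for miR-34b over miR-34b*, against 0.27 and 0.43. The cause of these shifts was not tested.

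A number is shared by different animals, which the labels tie to a length of treatment that clashes with their labelled age. The deviations of same-numbered rats had correlations of -0.0112 to 0.337 over 370 miRNAs, the latter between the rats numbered 4. Their mean was 0.15, against -0.05 for rats of different numbers. The numbers were not taken as pairs in the main fit, and an effect shared by rats of a number was not tested. With a replicate block 74 miRNAs and 9 marker miRNAs were called, 7 members stayed up-regulated with a log2FC of 4.39 for miR-34a and 3.67 for miR-34c, miR-449c-5p had an adjusted p of 0.101 in edgeR, miR-107 one of 0.0505 and miR-741-3p one of 0.0629, both no longer called. The block added calls of miR-194 (0.0362), miR-199a-5p (0.0198), miR-199a-3p (0.0436), miR-743a (0.0414) and miR-743b (0.0293, edgeR adjusted p in each case).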
